A study of Bos taurus with 2 samples.

Results

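The genes described here encode the folding machinery of the endoplasmic reticulum (ER) and the unfolded protein response that adjusts it. The 34 members are 9 genes of the ER HSP70 and HSP90 chaperones and their cofactors, 2 lectin chaperones, 8 genes of the disulfide group, 3 sensors, 5 transcription factors and feedback genes, and 7 genes of ER-associated degradation. They were chosen by symbol, through the gene name of the probe or the current symbol of its RefSeq entry. Their values were not used in the choice, but earlier results of these data were known. Of the 17370 genes with a named probe on the array, 33 were members, since no probe was named ATF6. A total of 92 probes stood for these 33 genes. ERN1 had 1 probe, which was not well above background on either array, so 32 members with 82 probes were measured on both.

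Proteins bound for secretion are threaded into the ER, where chaperones hold them while they fold, lectin chaperones bind their sugar chains, and disulfide isomerases join their cysteines. When unfolded chains build up, the membrane sensors IRE1 (encoded by ERN1), PERK (encoded by EIF2AK3) and ATF6 raise the transcription of chaperones and of the degradation machinery and slow translation. A lactating mammary gland secretes large amounts of casein and whey protein, so its secretory cells are rich in ER. An array of transcripts reads neither the cleavage of ATF6, nor the phosphorylation of the sensors, and its probes are not described as separating the spliced from the unspliced form of XBP1.

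The tissue was mammary gland of female Chinese Holstein cows in late lactation, with clinical mastitis or healthy. Per the study's methods antibiotics had been given to the diseased cows but not to the healthy ones, so that disease and antibiotic treatment cannot be told apart, and recombinant somatotropin had been given to none. There was 1 array labelled mastitis and 1 labelled normal. The design lists 3 animals in each group, and no source used here says which animal either array came from. With a single array for each condition, differences could not be checked against replicates or tested. Each array was read in a single colour, and a net signal is the brightness of a spot after the scanner software took off its background value. To count as well above background, a spot had to be found by the software and to exceed a net signal of 7.10 in mastitis or 8.74 in normal tissue, each taken from the negative controls of that array. Net signals were scaled to the 75th percentile of their own array, which was 210 for mastitis and 128 for normal. For each probe the log2 ratio is log2 mastitis minus log2 normal, and the ratio of a gene averages its measured probes, so that a value below 0 means lower on the mastitis array. The SD over the probes of a gene is technical and does not cover differences between cows. The median over 12473 measured genes was -0.15.

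The folding genes of the ER were mostly lower on the mastitis array. By their median, the measured sensor, factor and degradation genes lay closer to all genes. This split into 2 groups was made after the values were seen. A difference of 2-fold or more towards lower mastitis values was found for 9 of the 32 measured members, against 9.12% of all measured genes, and towards higher values for 0, against 2.29% of all genes. At 1.5-fold the counts were 16 lower, against 21.6% of all genes, and 0 higher, against 7.78%. The median over the members was -0.57, and 26 of the 32 lay below the median of all genes. Without scaling every ratio is higher by 0.71, so that the median over the members was 0.15, against 0.57 over all genes, and the ratios of CANX, PDIA3, PDIA5, HYOU1 and XBP1, among others, were above 0. The 9 were SDF2L1, DNAJC3, TRIB3, PDIA4, DNAJB11, CRELD2, HSPA5, P4HB and CALR, of which 8 belong to the folding groups and TRIB3 to the feedback genes. At the other end stood PPP1R15A, EDEM1, DDIT3 and ERO1A, the 4 members with a ratio above 0. Between 1.5-fold and 2-fold lower were 7 further members, HSP90B1, MANF, CRELD1, PDIA6, SYVN1, DERL3 and PDIA3. The count of 9 depended on the scaling and background correction and was 2 with the normexp correction, against 3.26% of all genes, and 4 with spike-in scaling, against 5.96%. A single scaling factor moves all genes alike and cannot change which members lie below the median of all genes. With settings that move genes unequally, 25 members lay there with normexp, 27 with quantile normalization and 27 with cyclic loess, and 15 did in the deposited table as it stands, whose values sit 1 probe away from their names.

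**Figure D1:**
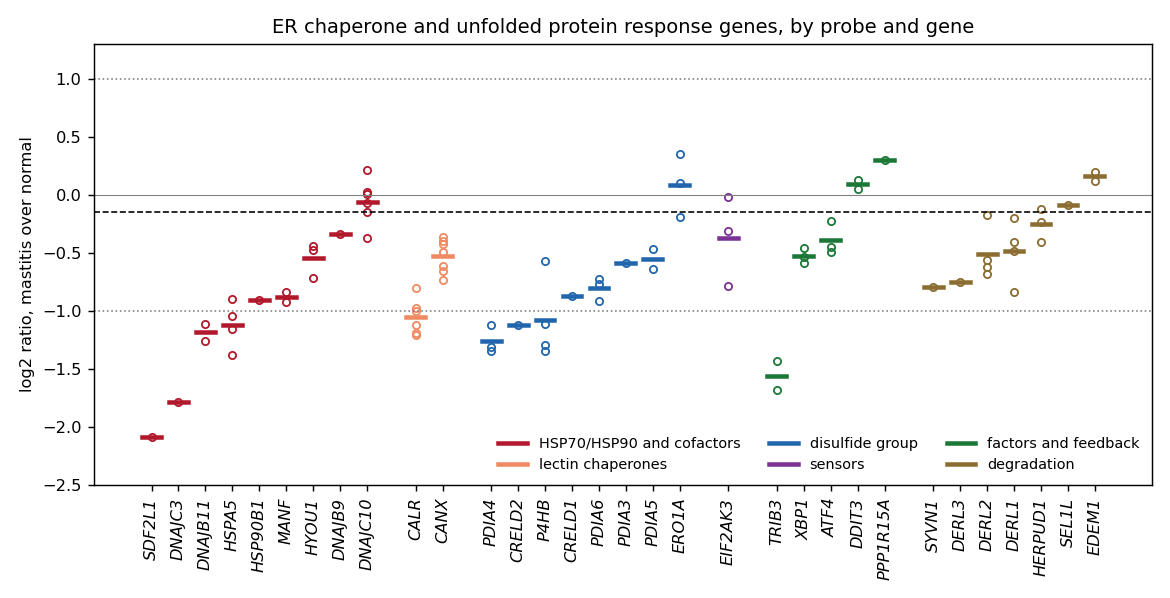
Log2 of mastitis over normal (vertical axis) of the 32 measured members, grouped by role along the horizontal axis. Each probe is an open circle and each gene mean a bar. The median of all measured genes (-0.15) is dashed, and 2-fold is dotted. The bars reach down to -2.09 for SDF2L1 and up to 0.30 for PPP1R15A, and 9 lie at or below the lower dotted line.

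The ER HSP70 gene and several of its cofactors were among the lowest members. HSPA5, which encodes BiP, the chaperone that also holds the sensors inactive, had net signals of 4583, 763, 172 and 107 on the mastitis array, and in the same order of probes 5744, 868, 234 and 170 on the normal array, before scaling. All 4 probes were dimmer on the mastitis array even before scaling, and the log2 ratio was -1.12, or 2.17-fold lower (SD 0.20, 4 probes). DNAJB11, a J-domain cofactor of BiP, had net signals of 197 and 210 in mastitis, against 287 and 276 in normal tissue, and a log2 ratio of -1.18 (SD 0.11, 2 probes). DNAJC3, an inhibitor of PERK that also acts as a BiP cofactor in the lumen, had a net signal of 647 in mastitis, against 1359 in normal tissue. Its single probe gave a 3.45-fold lower value. SDF2L1, a partner of DNAJB11 in the BiP complexes, had a net signal of 105 in mastitis, against 272 in normal tissue. At 4.25-fold lower, from 1 probe, it had the lowest ratio of all members, and 1.76% of the measured genes lay below it. DNAJC3 and SDF2L1 were the only 2 members at least 2-fold lower in each of 14 other ways of processing, of which the deposited table as it stands was not one.

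The remaining genes of this group were within 2-fold. HSP90B1, which encodes GRP94, the ER form of HSP90, had a net signal of 5078 in mastitis, against 5813 in normal tissue, and a log2 ratio of -0.91 from 1 probe. MANF, a secreted protein that binds BiP and is induced by ER stress, had net signals of 2155 and 364 in mastitis, against 2489 and 396 in normal tissue, and a ratio of -0.88 (SD 0.06, 2 probes). HYOU1, the nucleotide exchange factor of BiP known as GRP170, had net signals of 1034, 92 and 13 in mastitis, against 877, 76 and 13 in normal tissue. Before scaling its probes were thus as bright or brighter on the mastitis array, and after scaling the ratio was -0.54 (SD 0.15, 3 probes). The other 2 J-domain genes lay nearest to all genes. DNAJB9, which encodes a J protein that represses IRE1, had a net signal of 1209 in mastitis, against 928 in normal tissue, and a ratio of -0.33. DNAJC10, the ER reductase ERdj5, had net signals of 38 to 346 in mastitis, against 30 to 234 in normal tissue, and a ratio of -0.06 (SD 0.20, 6 probes), with 3 probes on each side of 0. The 5 J-domain and SDF2-like partners of BiP therefore ranged from -2.09 to -0.06. Over the 9 genes of the group the median was -0.91, and 8 lay below the median of all genes. Of the 9, 4 were at least 2-fold lower, against 9.12% of all genes.

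The lectin chaperones CALR and CANX, which hold monoglucosylated glycoproteins in the calnexin cycle, were both lower on the mastitis array. CALR, the soluble one, had net signals of 10561, 8181, 4624, 483, 144 and 93 in mastitis, against 12615, 10003, 4914, 641, 203 and 129 in normal tissue. Each of its 6 probes was dimmer on the mastitis array before scaling, and the ratio was -1.05, or 2.07-fold lower (SD 0.15, 6 probes). CANX, the membrane-bound one, had net signals of 3781, 2474, 233, 149, 99, 104 and 80 in mastitis, against 2959, 1982, 236, 128, 92, 85 and 77 in normal tissue. Its ratio was -0.52 (SD 0.14, 7 probes), and the highest probe of CANX (-0.36) and the lowest (-0.73) both lay above the highest probe of CALR (-0.80).

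The disulfide group was lower apart from its oxidase. PDIA4, an isomerase known as ERp72, had net signals of 909, 84 and 64 in mastitis, against 1208, 127 and 99 in normal tissue, and a 2.39-fold lower value (log2 ratio SD 0.12, 3 probes). P4HB, which encodes protein disulfide isomerase itself and is also a subunit of collagen prolyl hydroxylase, had net signals of 8418, 1231, 75 and 53 in mastitis, against 12582, 1902, 99 and 48 in normal tissue. It was 2.11-fold lower (SD 0.35, 4 probes), and its dimmest probe gave the smallest difference, -0.57. CRELD2, an ER protein with isomerase-like activity that is induced by ER stress, had a net signal of 747 in mastitis, against 992 in normal tissue, 2.18-fold lower after scaling. Its paralogue CRELD1 had 1 measured probe, at 9044 in mastitis, against 10083 in normal tissue, and a ratio of -0.87.

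The other isomerases were within 2-fold and lower. PDIA6, an isomerase that works with BiP, had net signals of 4787, 246 and 191 in mastitis, against 4820, 256 and 220 in normal tissue, and a ratio of -0.80 (SD 0.10, 3 probes). PDIA3, the glycoprotein isomerase ERp57 that pairs with CALR and CANX, had a net signal of 1300 in mastitis, against 1190 in normal tissue, and a ratio of -0.59 from 1 probe. PDIA5 had net signals of 556 and 19 in mastitis, against 467 and 18 in normal tissue, and a ratio of -0.55 (SD 0.12, 2 probes). ERO1A (named ERO1L on the array), the oxidase that recharges protein disulfide isomerase, stood apart from the rest of the group. It had net signals of 116, 88 and 23 in mastitis, against 66, 42 and 16 in normal tissue, and its ratio was 0.09 (SD 0.27, 3 probes), with probes from -0.19 to 0.35. Over the 8 genes the median was -0.84, and ERO1A alone lay above the median of all genes. Of the 8, 3 were at least 2-fold lower, against 9.12% of all genes.

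**Figure D2:**
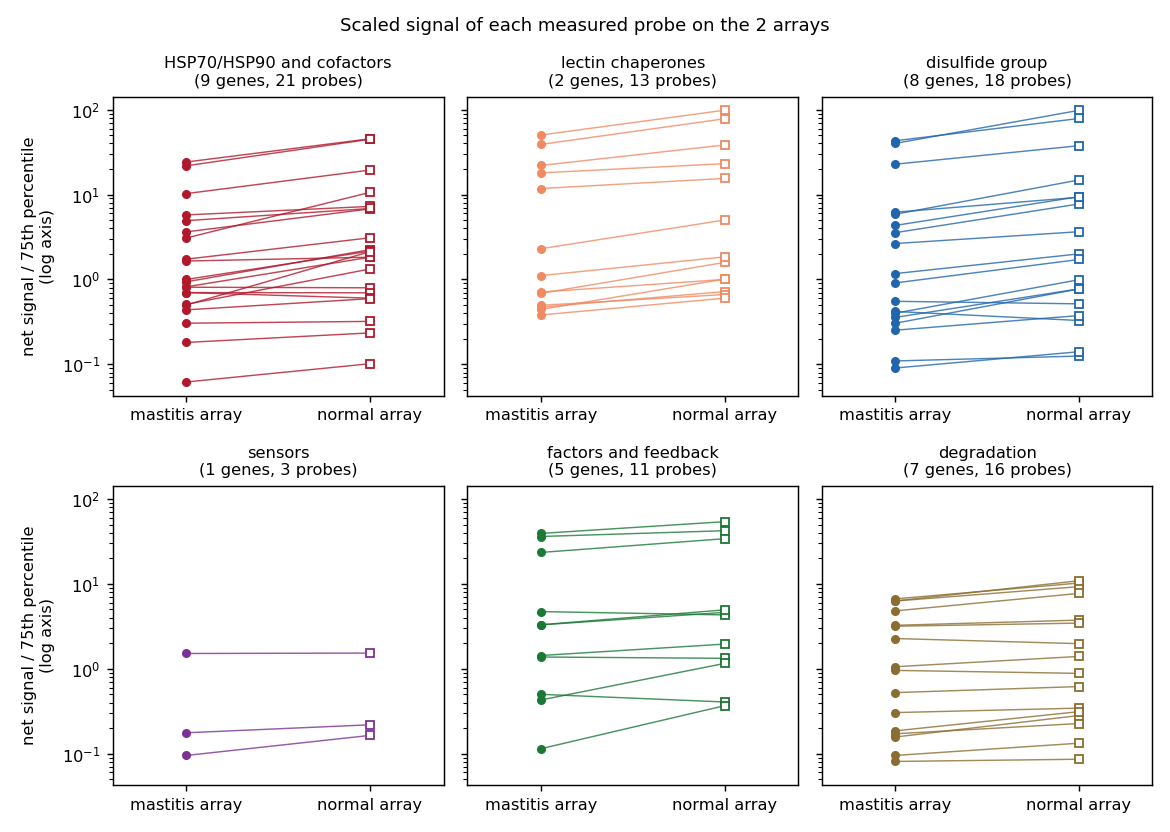
Net signal divided by the 75th percentile of its array (vertical axis, logarithmic) of each measured probe on the mastitis array (filled circles) and the normal array (open squares), in 6 panels by role. Lines join the 2 values of a probe. In the lectin panel all 13 lines run up towards the normal array, while the panel of factors and feedback genes holds lines in both directions.

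The sensors were hard to read on these arrays. EIF2AK3, which encodes PERK, the kinase that phosphorylates eIF2-alpha, had net signals of 318, 37 and 20 in mastitis, against 196, 28 and 21 in normal tissue. Its ratio was -0.37 with wide disagreement between probes (SD 0.39), and the brightest probe was at -0.02. ERN1, which encodes IRE1, had a net signal of 5 in mastitis, against -1 in normal tissue, both not well above background. A pair of probes with no gene name carry the description of activating transcription factor 6. They fall outside the rule and were looked up after the values of the members were seen. Their net signals were 10 and 9 in mastitis, against 22 and 16 in normal tissue, close to the background threshold on both, and their log2 ratios were -1.85 and -1.54.

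The transcription factors and feedback genes had ratios on both sides of 0. XBP1, the factor that IRE1 activates by splicing its transcript, had net signals of 8263, 4931 and 693 in mastitis, against 6925, 4363 and 633 in normal tissue. The ratio of XBP1 was -0.53 with closely agreeing probes (SD 0.06, 3 probes). ATF4, the factor whose translation rises when PERK acts, had net signals of 7598, 691 and 301 in mastitis, against 5421, 591 and 250 in normal tissue, and a ratio of -0.39 (SD 0.14, 3 probes). DDIT3, which encodes CHOP, a factor of the ER stress response linked to cell death, had net signals of 991 and 289 in mastitis, against 552 and 170 in normal tissue. Its ratio was 0.09 (SD 0.06, 2 probes), above the median of all genes in each of the 14 ways of processing. Those that change only a scaling factor could not alter this position. PPP1R15A, also called GADD34, directs the phosphatase that reverses the action of PERK, and had a net signal of 105 in mastitis, against 52 in normal tissue. When its probe not well above background was kept, the ratio was -0.71, against a median of -0.36 over all genes. From the 1 measured probe the ratio of PPP1R15A was 0.30, the highest of the members. TRIB3, a pseudokinase that ATF4 and CHOP induce and that restrains ATF4, went the other way. It had net signals of 90 and 24 in mastitis, against 148 and 47 in normal tissue, which is a 2.94-fold lower value (log2 ratio SD 0.18, 2 probes). With the normexp correction its log2 ratio was -0.95, within 2-fold.

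The genes of ER-associated degradation were within 2-fold throughout. HERPUD1, an ER stress-induced scaffold of the degradation complex, had net signals of 666, 222 and 110 in mastitis, against 442, 179 and 79 in normal tissue, and a ratio of -0.25 (SD 0.14, 3 probes). SYVN1, the ubiquitin ligase HRD1, had 1 measured probe at 1323 in mastitis, against 1395 in normal tissue, with a ratio of -0.79, while its partner SEL1L had a single dim probe at 17 in mastitis, against 11 in normal tissue, with a ratio of -0.09. The derlins form part of the channel that returns chains to the cytosol. DERL1 had net signals of 683, 33, 36 and 20 in mastitis, against 479, 36, 29 and 17 in normal tissue, and a ratio of -0.48 (SD 0.27, 4 probes). DERL2 had net signals of 1399, 1320, 1010 and 64 in mastitis, against 1311, 1188, 990 and 44 in normal tissue, and a ratio of -0.51 (SD 0.23, 4 probes). DERL3 had a net signal of 39 in mastitis, against 40 in normal tissue, and a ratio of -0.75 from 1 probe. EDEM1, a lectin that hands misfolded glycoproteins to this route, had net signals of 477 and 201 in mastitis, against 253 and 113 in normal tissue. Its ratio was 0.16 (SD 0.06, 2 of 4 probes measured), the highest of the group. When the probes not well above background were kept, the EDEM1 ratio was -1.03, against a median of -0.36 over all genes. The median over the 7 genes was -0.48, and 5 lay below the median of all genes. None was at least 2-fold lower or higher, against 9.12% and 2.29% of all genes.

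Different probes of a member mostly pointed the same way. Of 21 members with several measured probes, 17 had all probes below 0, 2 (DDIT3 and EDEM1) had all above 0, and 2 (DNAJC10 and ERO1A) had probes on both sides. The pooled SD over the probes of a member was 0.20, against 0.45 over the probes of all genes and 0.17 over replicate spots of the same probe. Of the 82 probes, 72 were below 0 and 68 below the median of all genes, 20 were at least 2-fold lower, against 8.81% of all named probes, 0 were at least 2-fold higher, and none was saturated. Before scaling, 35 of the 82 had a lower net signal on the mastitis array. Of the 9 members at least 2-fold lower, 3 (SDF2L1, DNAJC3 and CRELD2) rested on 1 probe.

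Many members are bright, and the ratios of all genes varied with brightness. Genes were split into 4 equal groups by the mean scaled signal of their probes, and the median ratio of all genes was -0.37 in the dimmest, -0.07 and -0.04 in the middle groups and -0.14 in the brightest. The brightest group held 17 of the 32 members, with a median of -0.80, and 16 of these lay below the median of that group. Each member was also set beside the 300 genes on each side of it in order of signal, fewer at the ends. The medians of these neighbours ranged from -0.56 to -0.01, and 27 of the 32 members lay below theirs. HSPA5 was lower than its neighbours by 1.04 on the log2 scale, whereas HSP90B1, CRELD1 and XBP1, which are near the bright end, had ratios of -0.91, -0.87 and -0.53 against neighbours at -0.39, -0.40 and -0.38. Restricting the probes to net signals of 50 or more on each array left 30 members. Of these 9 were at least 2-fold lower, against 6.14% of all genes under the same filter. Among genes at or above the 75th percentile in signal, 7.39% were at least 2-fold lower.

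**Figure D3:**
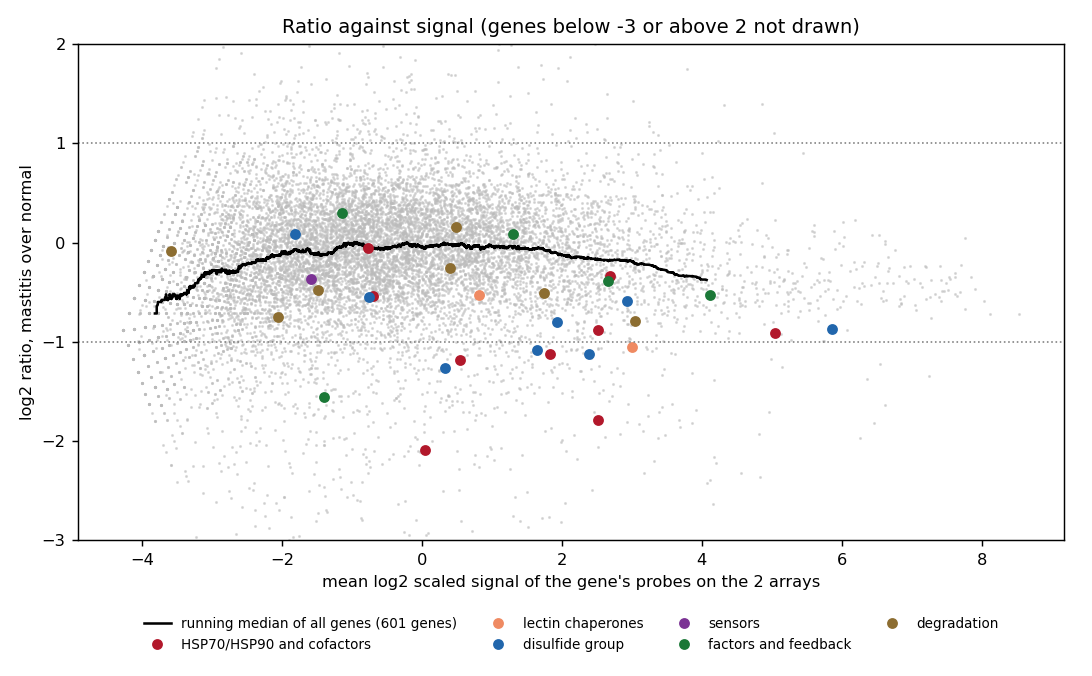
Log2 of mastitis over normal (vertical axis) against the mean log2 scaled signal of the probes of a gene on the 2 arrays (horizontal axis). Grey points are all measured genes, the black line is their running median over 601 genes, coloured points are the members by role, and dotted lines mark 2-fold. Genes below -3 or above 2 are not drawn. Most coloured points lie under the black line, and 27 of the 32 members lay below the median of their neighbours in signal.

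The roles were then put into 2 larger groups, after their values had been seen. The 19 genes of the chaperone, lectin and disulfide groups had a median of -0.88, with 17 below the median of all genes. Of the 19, 8 (42.1%) were at least 2-fold lower, against 9.12% of all genes. The 13 measured genes of sensors, factors and degradation had a median of -0.39, with 9 below the median of all genes. Of the 13, 1 (7.69%) was at least 2-fold lower, near the share of all genes. The difference between these medians was -0.49 and ranged from -0.71 to -0.35 over the 14 other ways of processing. Relative to the median of all genes, the folding genes ranged from -0.83 to -0.51 and the others from -0.31 to -0.11 over the same settings. Those settings that change only a scaling factor could not move any of these values, and leaving out saturated probes could not move the difference. No test of this difference was possible with 1 array per condition.

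Genes that work beside the members were listed by process. Of 40 further measured foldases and quality control genes of the ER, 8 (20%) were at least 2-fold lower, against 9.12% of all genes. None was at least 2-fold higher, against 2.29% of all genes, and the median was -0.59. The lowest were MLEC (malectin, which binds glucosylated chains), at -1.67 from 1 probe, and QSOX1, a sulfhydryl oxidase, at -1.54 (SD 0.16, 4 probes). The highest were FKBP7 and RCN1, at 0.53 and 0.32. PDIA2, a further isomerase, passed the background threshold in normal tissue only, with 1 of its 2 probes, and was at least 3.28-fold lower in mastitis by that probe, a bound taken against the lowest mastitis signal above background. Genes of ER translocation and COPII export bring chains into the ER and carry cargo out. Of 45 measured, 10 (22.2%) were at least 2-fold lower, against 9.12% of all genes. None was at least 2-fold higher, against 2.29% of all genes, and the median was -0.51. SEC11C, a signal peptidase subunit, had a ratio of -1.86 (SD 0.19, 2 probes), and SEC24C, a COPII coat gene, one of -1.91 with widely differing probes (SD 2.13, 4 probes). SEC24B and SEC61A2 were the highest at 0.66 and 0.38. Of 44 heat shock genes of the cytosol and mitochondria 1 passed 2-fold towards lower values (HSPB6, -2.18, with its 2 probes at -3.24 and -1.12) and 1 towards higher values (HSPA12B, 1.97, 1 probe). That was 2.27% of them towards lower values, against 9.12% of all genes, while 2.29% of all genes passed 2-fold towards higher values. The median of the heat shock genes was -0.04, above that of all genes, and 18 of the 44 lay below the median of all genes. DNAJB5 and HSPB8 were next in the 2 directions at -0.93 and 0.93. DNAJA4, a J-domain gene of the cytosol, passed the background threshold in mastitis only, and its brightest probe was at least 2.64-fold higher there, with net signals of 39 in mastitis and 7 in normal tissue. Its other 3 probes were dim, with net signals of 12, 14 and 15 in mastitis and 8, 5 and 3 in normal tissue, and give no such bound.

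**Figure D4:**
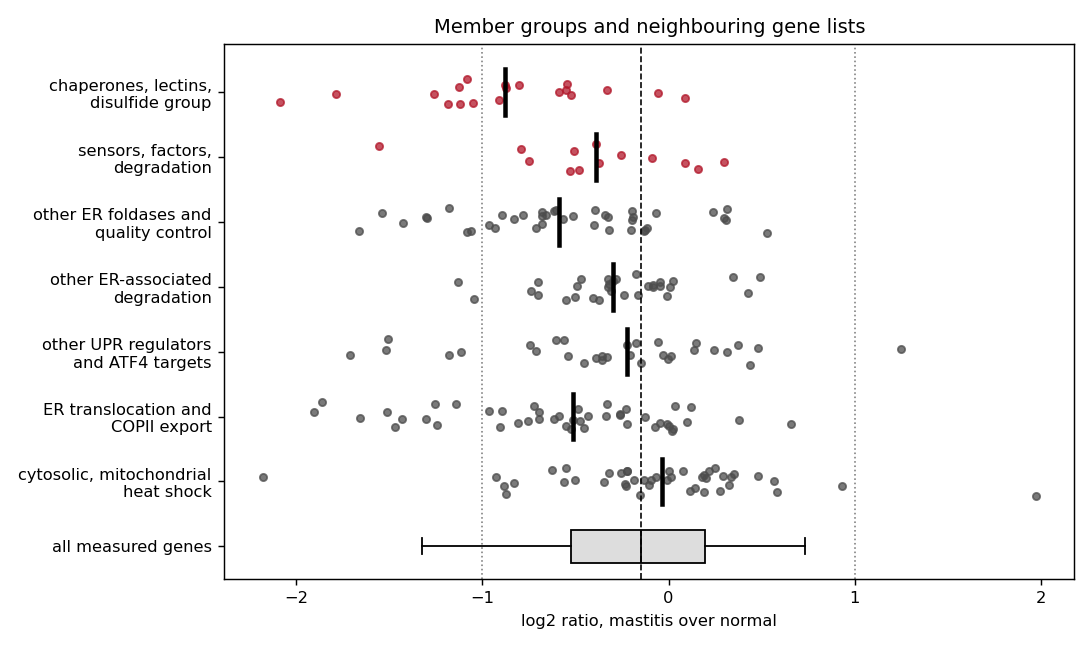
Log2 of mastitis over normal (horizontal axis) of the members in 2 groups (red) and of genes in 5 neighbouring lists (grey). Points are genes, spread vertically for legibility, and bars are medians, -0.88 and -0.39 for the members. The box shows the quartiles of all measured genes with whiskers at the 5th and 95th percentiles, the dashed line is their median (-0.15), and dotted lines mark 2-fold. The median of the cytosolic and mitochondrial heat shock genes (-0.04) is the only one to the right of the dashed line.

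By their medians, other genes of degradation and of the stress response were nearer to all genes. At least 2-fold lower were 6.45% of these degradation genes and 16.1% of the regulators and ATF4 targets, against 9.12% of all genes. At least 2-fold higher were 2.29% of all genes. Of 31 further measured genes of ER-associated degradation, 2 were at least 2-fold lower (NPLOC4 at -1.13 and UBE2J1 at -1.04, each from 1 probe) and none was higher, with a median of -0.30. MARCHF6 and RNF139, both ubiquitin ligases of the ER membrane, were the highest at 0.49 and 0.43. Of 31 further regulators and ATF4 targets, 5 passed 2-fold towards lower and 1 towards higher values, with a median of -0.22. The 5 were ASNS, which makes asparagine (3.28-fold, log2 ratio SD 0.20, 2 probes), PSAT1 of serine synthesis (2.87-fold, SD 0.10, 2 probes), MTHFD2 of mitochondrial folate metabolism (2.84-fold, 1 probe), the factor gene ATF3 (2.26-fold, 1 probe) and NUPR1 (2.16-fold, SD 0.06, 3 probes). The higher one was the growth arrest gene GADD45A, at 2.38-fold, and the next highest was NCK1 at 0.48.

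Markers of cell types differed between the arrays as well. Of 11 measured milk protein genes of secretory cells, all 11 were at least 2-fold lower, with a median of -6.23, and LALBA was well above background on the normal array alone. Of their 35 measured probes, 6 had saturated pixels on the normal array and 1 of these on the mastitis array too, so that the ratios of such probes are inexact, and without these probes the median was -6.29. Markers of luminal epithelium had a median of -0.35, with 2 of 13 at least 2-fold lower (the alveolar factor gene ELF5 at -2.22 and PROM1 at -1.23), while KRT18, a luminal keratin, was at 0.97. Plasma cells are also rich in ER. Of 12 measured markers of plasma cells and B cells, 2 were at least 2-fold lower, MZB1, a co-chaperone of GRP94 in these cells, at -1.27 and MS4A1 at -1.17, and their median was -0.40. Other markers of this list spread in both directions, with IRF4 at -0.96, POU2AF1 at -0.73, CD79B at -0.42, PAX5 at -0.41, CD79A at -0.39, SDC1 at -0.00062, PRDM1 at 0.15, JCHAIN, the joining chain of secreted antibodies, at 0.21 and CD38 at 0.81. Of 9 macrophage markers, 5 were at least 2-fold higher, with a median of 1.02, and 6 of 8 for neutrophils were 2-fold or more lower, with a median of -1.66. The medians of the other marker lists were 0.27 for endothelium, 0.36 for fibroblasts, 0.21 for myoepithelium, 0.03 for T cells, 2.82 for erythroid cells (3 genes) and -1.61 for adipocytes (3 genes). Of the 4 measured adipocyte probes, 1 had saturated pixels on the normal array, and without it the median was -0.65 (2 genes). The adipocyte genes did not go 1 way, with LEP at -1.63, CIDEC at -1.61 and PPARG at 0.33. Their summed scaled signals were 3.43 in mastitis and 3.13 in normal tissue. Summed over their measured probes, scaled signals were 854 in mastitis and 10761 in normal tissue for the milk proteins, saturated probes included, 210 and 289 for luminal epithelium, 54.4 and 53.9 for plasma cells and B cells, 199 and 100.4 for macrophages and 53.6 and 131 for neutrophils. In bulk tissue, fewer cells of a type and less RNA per cell cannot be told apart, and the part of these differences in the values of the members was not tested.

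**Figure D5:**
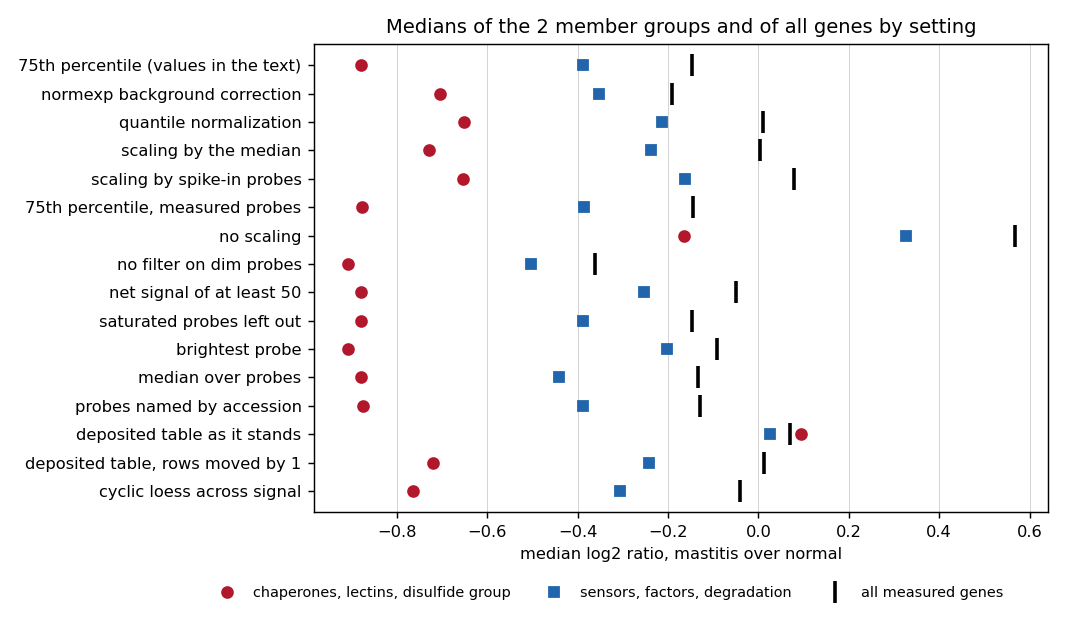
Median log2 of mastitis over normal (horizontal axis) of the 19 folding genes (circles), of the measured genes of sensors, factors and degradation (squares) and of all measured genes (bars), for each way of processing (rows). The circle lies left of the square and the square left of the bar in each row except that of the deposited table as it stands, where the circle is at the right.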

How the data were processed

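The authors deposited scanner tables of 2 arrays, 1 mastitis and 1 normal, of an Agilent bovine oligonucleotide array read in Cy3 at 532 nm. Per the file headers they were exported from GenePix Pro 6.1, whereas Agilent Feature Extraction stands in the submitters' processing notes and an Affymetrix chip in the methods. The intensity used was the deposited spot median minus the background value of the scanner software, unscaled. After this subtraction the negative controls averaged 0.013 in mastitis and 1.95 in normal. Per the file headers the tables also give the percent of saturated pixels, and a flag score marks spots that were not found. How the authors made the deposited log2 values is not given in the sources used here, nor is their centring. Their medians were 4.34 for mastitis and 4.29 for normal. For mastitis they correlated with the net signals of the scanner at a Spearman rho of 0.10 as they stand, and of 1.00 after a shift by 1 probe. It served as an alternative only.

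Control spots were left out, and spots of a probe were averaged. The background threshold was 2.6 SD above the mean of 153 negative controls. Both arrays came from the same slide and scan, so no batch could be compared. Probes were named by RefSeq accession (28562 of 43653), symbol (5113) or synonym (147) in RefSeq genes of ARS-UCD2.0, or kept the name in the file (1379), and 8452 had none. The number of arrays, 1 per group, limits the precision. The threshold of 2-fold was that of the study. The members and lists were chosen with earlier results of these data known. All members are named, and of each other list the 2 lowest and 2 highest genes. Of the marker lists up to 4 genes were named by the size of the ratio, and of plasma cells and B cells the measured genes, of which 1 is not reported here. ATF3, MTHFD2 and NUPR1, named to complete a count, were chosen after their values were seen. The calculation was tested on simulated data. Alternatives were other background corrections, scalings, filters, summaries over probes and fold thresholds, and cyclic loess was added after seeing the data. Python 3.11.15 was used with matplotlib 3.10.9, scipy 1.17.1, pandas 2.3.3 and numpy 2.4.6, and R 4.3.3 with limma 3.58.1. The promoter and protein motifs planned for the members were not analysed here.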

Additional observations from a re-analysis of the deposited data

How the results depend on the processing

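The count of 9 members at least 2-fold lower (9.12% of all genes) became 2 with the normexp correction (SDF2L1 and DNAJC3, 3.26% of all genes), 5 with scaling by the median (6.66%), 4 with spike-in scaling (5.96%), 2 without scaling (2.65%) and 3 in the deposited table as it stands (11.5%). It was 16 at 1.5-fold (21.6%) and 2 at 3-fold (3.30%). The count of 0 members at least 2-fold higher (2.29% of all genes) became 1 without scaling (PPP1R15A, 20.2% of all genes), 1 without the filter on dim probes (ERN1, 2.73%) and 5 in the deposited table as it stands (12.3%). The median of -0.57 became -0.40 with quantile normalization, -0.34 with spike-in scaling, 0.15 without scaling, -0.75 without the filter and 0.0825 in the deposited table as it stands, where 15 members in place of 26 lay below the median of all genes. In that table, whose rows are displaced by 1 probe, HSPA5, DNAJB11, DNAJC3, PDIA4, CRELD2 and TRIB3 turned to 0.095, 0.18, 0.11, 2.83, 0.72 and 0.025. With its rows moved by 1 probe the count was 7, against 6.36% of all genes, and the median was -0.42, against 0.013 over all genes. The median of all genes ranged from -0.36 to 0.57 over the 14 settings other than that table, and the median of the members relative to it from -0.56 to -0.24. In all 14 settings 21 members lay below the median of all genes, as did DERL3 and P4HB in the 13 that measured them. Those of the 14 that change only a scaling factor could not alter this, nor the relative median. At least 2-fold lower in none of the 14 were 21 members. No paired analysis was possible because each group has 1 array, and no array could be left out. Values nearer to the background threshold, those of SEL1L and the dimmest measured probes of TRIB3, HYOU1 and EIF2AK3 among them, are limited by the signal over background.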
